A study of Rattus norvegicus with 6 samples.

Results

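The genes described here are the Bcl2 family and caspase genes of the mitochondrial and death receptor routes to apoptosis: Bcl2, Bcl2l1, Mcl1, Bax, Bad, Bid, Apaf1, Casp8 and Casp9. They were chosen because Neurod6 has been linked to neuronal survival, and every probe set whose platform gene symbol is a chosen gene was taken. This gave 16 probe sets for 8 of the 9 genes, out of 31042 on the array once control probe sets were removed. Bax shares its listed probe set with another gene, LOC681314, and was not analysed here. Primary rat cortical cells, a culture in which neurons grow among other brain cells, received a Math2 expression vector (3 arrays) or a control vector (3 arrays). Math2 is the former name for Neurod6, which encodes a neuronal transcription factor of the basic helix-loop-helix (bHLH) class. Dishes of both groups also received a vector for a cytoplasmically truncated low-affinity nerve growth factor receptor (LNGFR), and cells carrying this surface tag were pulled out magnetically 24 h later. The labels give neither strain nor age of the animals, nor whether the numbered samples were separate cultures. The p-values therefore cover the spread among these samples alone, and that spread may be technical.

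Apoptosis through mitochondria is controlled by the Bcl2 protein family. Pro-survival members hold the pore-forming members Bax and Bak1 in check on the outer mitochondrial membrane, and BH3-only members relieve that hold or activate the pore formers directly. Once the membrane opens, cytochrome c joins Apaf1 in the apoptosome, which activates Casp9, whereas Casp8 is activated at death receptors and can cut Bid to link both routes. In the developing cortex this machinery removes surplus neurons and progenitors. Much of its control lies in protein stability, phosphorylation and cleavage, which an array of transcripts does not measure.

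No Bcl2 family or caspase probe set passed the test of Math2 against control arrays, and the largest differences among those tested were 0.47 for Mcl1 and -0.52 for Bid on the log2 scale. Signals were compared as log2(signal + 7.42) with limma, and 9 of the 16 probe sets, from 7 genes, passed the filter on dim signals and were tested. Of these, 0 passed the Benjamini-Hochberg adjusted threshold of 0.05, in limma without or with the replicate number as a block, against backgrounds of 0% and 0.0161% of all 18625 tested probe sets. At an unadjusted p under 0.05, 1 of the 9 was higher and 0 lower, against 1.75% and 1.44% of all tested probe sets. With the block it was again 1 higher and 0 lower, against 3.78% and 3.92%. Groups did not overlap for 2 of the 9 (Mcl1 1372520_at and Bid 1377759_at), against 8% of all tested probe sets. After quantile normalization or median centring both of these overlapped, and 1 of the 9 was without overlap, Casp9 probe set 1368652_at. The share of all tested probe sets was not taken after those steps. The sign was the same in 3 of 3 numbered pairs for 4 of the 9, against 28.3%. The median log2 difference over the 9 was -0.0029, with 4 above 0 and 5 below, beside -0.031 over all tested probe sets. After quantile normalization the median of the 9 was 0.074. In a mixed culture, a different share of a cell type and a different amount of RNA per cell cannot be told apart.

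The arrays had median signals of 102 to 120 and trimmed means of 500, and log2 signals correlated across probe sets at 0.926 to 0.955 within groups. Hybridization spike-ins had a geometric mean signal of 4897 ± 1626 on Math2 arrays and 2312 ± 366 on control arrays (SD, n = 3). The brightest 1% of tested probe sets had a median log2 difference of 0.43, which was -0.0046 after quantile normalization. The 3' over 5' signal of Gapdh, which is high where labelled transcripts are short, came to 8.48, 5.997 and 8.14 on Math2 arrays 1, 2 and 3, against 13.8, 3.74 and 5.04 on control arrays 1, 2 and 3. Of the marker lists, 5 of 7 pan-neuronal and 5 of 6 astrocyte genes lay above the array median on every array. So did 3 of 5 fibroblast and meningeal, 3 of 4 neural progenitor and 2 of 5 measured oligodendrocyte lineage genes. By contrast, 6 of 6 microglia and macrophage genes and 4 of 5 endothelial and mural genes lay below it on every array. The endothelial and mural list had a summed signal of 280 to 426 on Math2 arrays and 197 to 210 on control arrays, without overlap. Its separation rests on 1379211_at, the brightest probe set of Pdgfrb, a receptor of mural cells. Without that gene the sums, taken after seeing the data, were 121 to 167 on Math2 arrays and 134 to 173 on control arrays and overlapped. The dimmer Pdgfrb probe sets 1370642_s_at and 1391394_s_at, which are not in the sum, also overlapped between groups. Their log2 differences in the fit without a filter were 0.23 and -0.073. The Neurod6 probe set had signals of 312, 167 and 1546 on Math2 arrays and 386, 207 and 973 on control arrays, and it checks nothing about the labels, which leave the transfected sequence unstated.

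**Figure D1:**
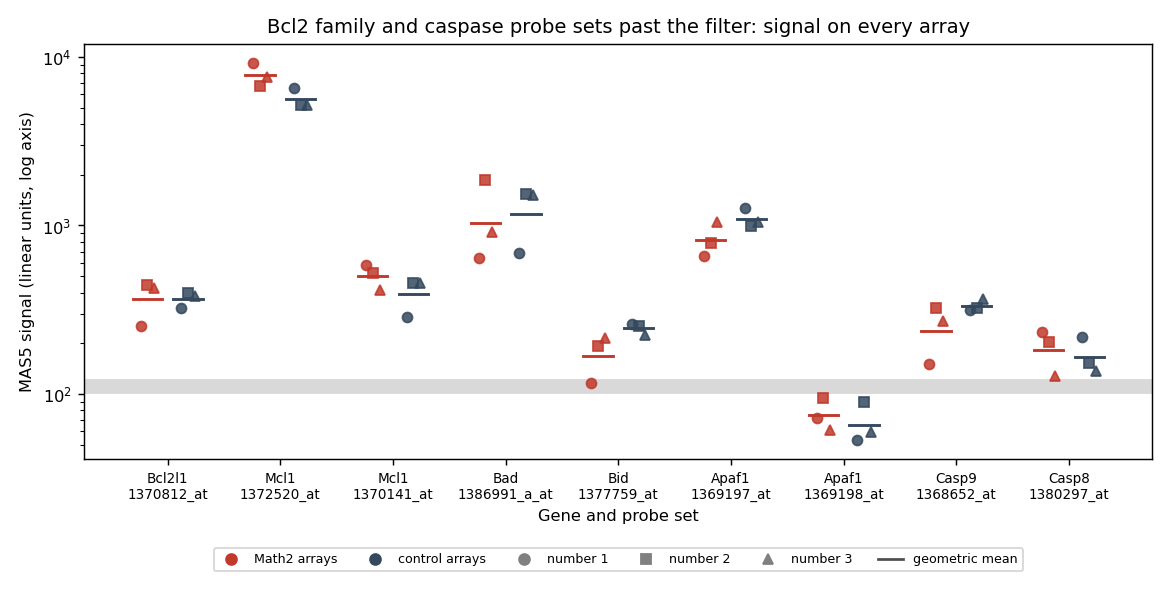
MAS5 signal (log axis) of the 9 tested probe sets on each Math2 array (red, left) and control array (dark blue, right), with the marker shape giving the sample number and bars the geometric mean. The grey band spans the array medians of 102 to 120. The groups are apart for Mcl1 probe set 1372520_at and Bid probe set 1377759_at and overlap for the other 7.

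Factors of the bHLH class bind E-boxes, the letters CANNTG. The promoters of Mcl1 and Bid are shown as those of the 2 genes with a tested probe set whose groups did not overlap in the deposited signals. Each is the 250 bases before the RefSeq gene start on assembly GRCr8, 5′ to 3′ on the gene's strand, with E-box letters in capitals. Mcl1 lies at chr2:185907918-185908167 on the + strand, and Bid at chr4:155808320-155808569 on the - strand.
Mcl1: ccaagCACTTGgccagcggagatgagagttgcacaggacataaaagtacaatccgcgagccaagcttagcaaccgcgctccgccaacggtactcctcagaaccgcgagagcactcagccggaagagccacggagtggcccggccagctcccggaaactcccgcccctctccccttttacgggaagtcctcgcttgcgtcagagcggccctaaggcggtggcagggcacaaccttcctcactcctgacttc
Bid: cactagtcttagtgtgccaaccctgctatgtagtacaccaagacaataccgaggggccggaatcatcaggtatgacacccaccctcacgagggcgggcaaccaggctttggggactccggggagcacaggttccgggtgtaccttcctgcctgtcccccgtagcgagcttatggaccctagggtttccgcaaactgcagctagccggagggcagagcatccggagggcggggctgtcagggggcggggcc
The Mcl1 window holds CANNTG once, as CACTTG starting 245 bases before the gene start, and the Bid window does not hold it. CANNTG reads as the same pattern on both strands. Windows were found for 7 of the 9 genes, 10 in all because Bcl2l1 has 4 listed starts. Of these 10, 3 held CANNTG (Mcl1, Bcl2 and 1 of the 4 of Bcl2l1), against 65.54% of 33469 windows of the same length in the RefSeq table. Counted by gene it was 3 of 7. Some of the Bcl2l1 windows overlap, so the 10 are not independent. The E-box CAGATG, searched on both strands and a subset of CANNTG, was in 0 of the 10, against 13.96% of all windows. A match is only a run of letters, and its absence here says nothing of sites outside these windows.

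Among the tested probe sets of pro-survival genes, those of Mcl1 had the highest Math2 signals relative to controls. Mcl1 encodes a short-lived Bcl2 relative that developing neurons of the mouse need to survive. Its probe set 1372520_at measured 9232, 6696 and 7659 on Math2 arrays 1, 2 and 3, against 6558, 5205 and 5217 on control arrays 1, 2 and 3. The Math2 group was above the control group without overlap, although Math2 array 2 and control array 1 were close to each other. The means were 7862.5 ± 1280.4 on Math2 arrays and 5660.02 ± 778 on control arrays (SD, n = 3). The log2 difference was 0.47 (SE 0.198), which is 1.38-fold (every fold here is 2 to the power of the log2 difference, and so understates the change of dim probe sets), and limma gave a 95% interval from 0.03 to 0.91 and an adjusted p of 1.00. With the replicate block the interval ran from 0.12 to 0.82 and limma's adjusted p was 0.497.

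This Mcl1 probe set is bright, but it lies below the brightest 1% of tested probe sets, whose median log2 difference was 0.43. It falls in the brightest 10%, whose median log2 difference was 0.0998, or -0.011 after quantile normalization. The log2 difference of Mcl1 probe set 1372520_at was 0.34 after quantile normalization, and its groups overlapped. They also overlapped after centring each array on its median. Spike-ins were highest on Math2 array 1, at 6773, where this probe set was also highest. The part of the spike-in and brightness difference in the Mcl1 value was not tested.

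The second Mcl1 probe set, 1370141_at, measured 581, 521 and 413 on Math2 arrays, against 287, 456 and 456 on control arrays. Math2 arrays 1 and 2 lay above every control array, and Math2 array 3 lay below control arrays 2 and 3. Its log2 difference was 0.35, with a 95% interval from -0.31 to 1.01 (limma adjusted p = 1.00, or 0.815 with the replicate block). Both Mcl1 probe sets thus had a difference above 0, with groups apart for the brighter only.

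Bcl2l1 encodes Bcl-xL, the main pro-survival protein of mature neurons, and its tested probe set had nearly equal means. Probe set 1370812_at measured 254, 445 and 428 on Math2 arrays 1, 2 and 3, against 323, 399 and 379 on control arrays 1, 2 and 3. In both groups array 1 was the lowest and array 2 the highest, and the groups overlapped. The log2 difference was -0.0029, with a 95% interval from -0.69 to 0.68, so these arrays bound a change between 0.621-fold and 1.603-fold at that level. With the block the interval was -0.55 to 0.54 (limma adjusted p = 0.999).

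A pair of further Bcl2l1 probe sets fell below the filter and below the median of every array. Probe set 1370485_a_at measured 46.7, 55.5 and 24.4 on Math2 arrays, against 20.0, 21.0 and 17.4 on control arrays. These groups did not overlap, and the limma fit without a filter gave a log2 difference of 0.83 and an adjusted p of 1.00 (0.79 with the block). Probe set 1369180_at measured 55.3, 41.7 and 64.7 on Math2 arrays, against 26.0, 54.9 and 58.4 on control arrays, with overlap. No detection calls were used here, so signals this dim may be background and their folds are uncertain. The 3 Bcl2l1 probe sets therefore disagree, and the brightest of them showed the smallest difference.

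Bcl2, the founding pro-survival gene of the family, has 1 probe set, and it was near the bottom of the signal range. Probe set 1387611_at measured 4.90, 5.32 and 4.87 on Math2 arrays 1, 2 and 3, against 3.70, 26.5 and 5.34 on control arrays 1, 2 and 3. Control array 2 stood above the other 5 arrays, which lay within 3.70 to 5.34. No change in Bcl2 was measurable from these values in either direction.

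Both BH3-only genes of the 9, Bid and Bad, had differences below 0 that did not pass. Bid, which Casp8 cuts to carry the death receptor signal to mitochondria, measured 116, 192 and 214 on Math2 arrays 1, 2 and 3 with probe set 1377759_at, against 261, 253 and 223 on control arrays 1, 2 and 3. Every Math2 array lay below every control array, with Math2 array 3 just under control array 3. The means were 174 ± 51.1 on Math2 arrays and 246 ± 19.8 on control arrays (SD, n = 3). This was 0.697-fold, or -0.52 on the log2 scale (SE 0.329). The 95% interval ran from -1.25 to 0.21 and did not leave out 0 (limma adjusted p = 1.00, or 0.729 with the replicate block). After quantile normalization the difference was -0.49 and the groups overlapped, as they did after median centring. Math2 array 1, the lowest, also had the highest spike-in signal, and its part in this value was not tested. The other Bid probe set, 1369683_at, was dim, at 6.39, 2.46 and 9.13 on Math2 arrays and 1.33, 15.6 and 10.1 on control arrays.

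Bad, a BH3-only protein that trophic kinase signalling inactivates by phosphorylation, varied more between sample numbers than between groups. Probe set 1386991_a_at measured 642, 1857 and 918 on Math2 arrays 1, 2 and 3, against 683, 1548 and 1522 on control arrays 1, 2 and 3. Number 1 was lowest and number 2 highest in both groups. The mean of the number 1 arrays was 0.453 times that of the other arrays. The 3' over 5' signal of Gapdh was highest on array 1 of both groups, and its part in the Bad values was not tested. The log2 difference was -0.18, with a 95% interval from -1.13 to 0.76, or from -0.69 to 0.32 with the replicate block (limma adjusted p = 1.00 and 0.909). Both intervals included differences of either sign, and the sign itself depended on which array was left out.

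The apoptosome genes gave lower means on Math2 arrays for their brightest probe sets. Apaf1 builds the wheel-shaped scaffold of the apoptosome, and its probe set 1369197_at measured 659, 792 and 1045 on Math2 arrays 1, 2 and 3, against 1273, 990 and 1051 on control arrays 1, 2 and 3. Math2 was lower in 3 of 3 numbered pairs, by very little in pair 3, and the groups overlapped. The log2 difference was -0.42, with a 95% interval from -1.01 to 0.16 (limma adjusted p = 1.00, or 0.714 with the block). The dimmer probe set 1369198_at measured 72.0, 95.1 and 61.3 on Math2 arrays, against 53.2, 89.5 and 59.8 on control arrays. It lay below the median of every array, and its difference of 0.17 had the opposite sign. Its 95% interval, from -0.68 to 1.01, included 0 as well.

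Casp9, the initiator caspase that Apaf1 activates, measured 151, 326 and 269 on Math2 arrays 1, 2 and 3 with probe set 1368652_at, against 314, 324 and 368 on control arrays 1, 2 and 3. Math2 arrays 1 and 3 lay below every control array, and Math2 array 2 lay among the control arrays. The log2 difference was -0.48, with a 95% interval from -1.23 to 0.26 (limma adjusted p = 1.00, or 0.729 with the block). After quantile normalization it was -0.44 and the groups no longer overlapped, and they were also apart after median centring. The dimmer Casp9 probe sets lay below the array medians on every array. Probe set 1370737_at measured 40.9, 16.4 and 64.1 on Math2 arrays, against 39.8, 8.46 and 3.15 on control arrays. Probe set 1388083_a_at measured 14.5, 19.3 and 9.83 on Math2 arrays, against 6.52, 20.6 and 30.7 on control arrays. In the fit without a filter the log2 difference was 1.13 for 1370737_at and -0.19 for 1388083_a_at. The sign of 1370737_at was thus opposite to that of 1368652_at, and signals this dim may be background.

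Casp8, the initiator caspase of death receptors, measured 234, 202 and 128 on Math2 arrays 1, 2 and 3 with probe set 1380297_at, against 218, 152 and 136 on control arrays 1, 2 and 3. Number 1 was the highest and number 3 the lowest in both groups, and the groups overlapped. The log2 difference was 0.14, with a 95% interval from -0.64 to 0.92 (limma adjusted p = 1.00, or 0.957 with the block). The second Casp8 probe set, 1369262_at, was dim, at 5.92, 62.5 and 2.10 on Math2 arrays and 3.08, 16.8 and 27.8 on control arrays, with much wider relative spread.

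**Figure D2:**
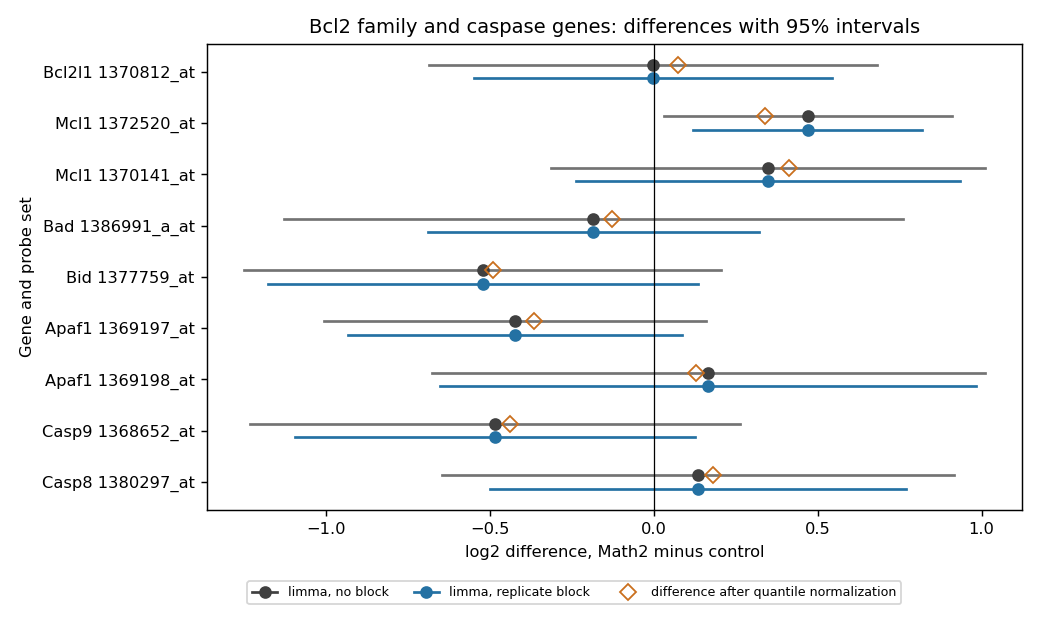
Log2 difference, Math2 minus control, of each tested probe set with its 95% interval from limma without (grey) and with (blue) the replicate block, and the difference after quantile normalization (open diamond). The interval of Mcl1 probe set 1372520_at lies above 0 before adjustment, from 0.03 to 0.91, and the other 8 intervals include 0.

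**Figure D3:**
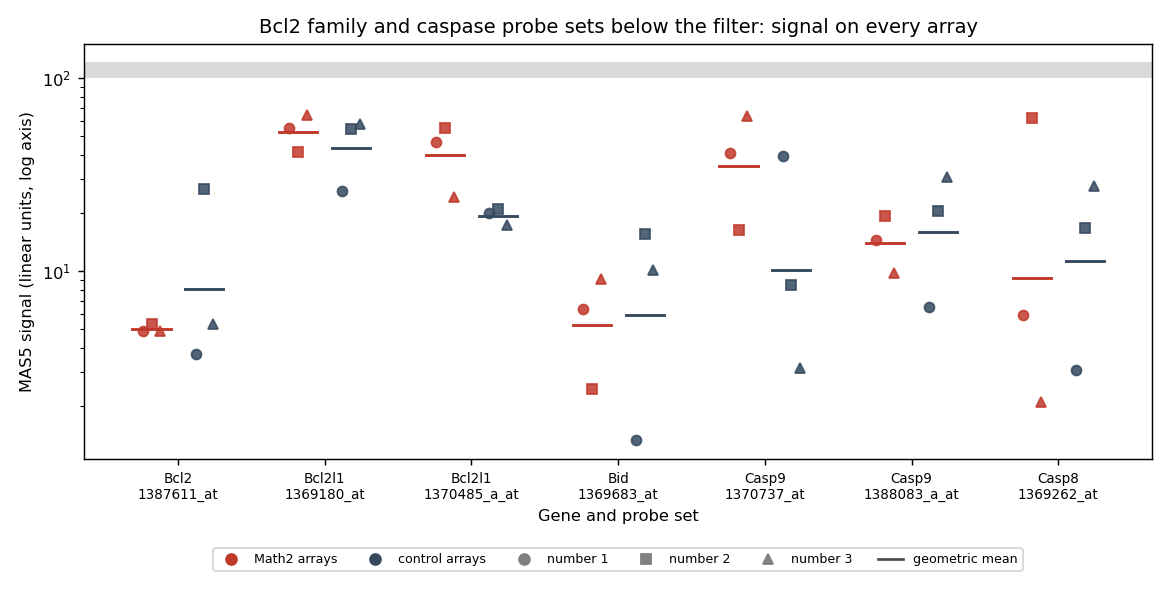
MAS5 signal (log axis) of the 7 Bcl2 family and caspase probe sets below the filter on each Math2 array (red, left) and control array (dark blue, right), with bars at the geometric mean and marker shapes for the sample number. All lie under the grey band of array medians, 102 to 120, and the only Bcl2 probe set is among them.

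Set out by role, the 3 tested probe sets of pro-survival genes had log2 differences of -0.0029, 0.35 and 0.47, the 2 of BH3-only genes -0.52 and -0.18, the 3 of apoptosome genes -0.48, -0.42 and 0.17, and the probe set of Casp8 0.14. None of these passed, and the intervals of all but Mcl1 probe set 1372520_at included 0. The median width of the 95% interval was 1.45 log2 units over the 9 probe sets without the block and 1.17 with it, close to the 1.47 and 1.15 over all tested probe sets.

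Likeness of pattern was read from Pearson's r of log2 signals over the 6 arrays, as the 3 highest of 13752 other tested probe sets with a single symbol. For Mcl1 probe set 1372520_at these were Nudt19 (0.9912), Eif2s2 (0.9905) and Pcnp (0.9895). For Bad they were Mllt1 (0.9974), Snx27 (0.9957) and Mib2 (0.9955). These are the highest of many candidates over only 6 arrays and are given as a description.

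Other genes of the apoptosis pathway gave no call either. Of 59 further genes in 6 lists, 48 had a probe set of their own and 54 of their 80 probe sets were tested. In limma 0 of the 54 were higher and 0 lower at the adjusted threshold, with and without the replicate block. Their median log2 difference was -0.052, with 22 above 0 and 32 below, beside -0.031 over all tested probe sets. At an unadjusted p under 0.05, 1 was higher (Tnf) and 0 lower, against 1.75% and 1.44% of all tested probe sets. Groups did not overlap for Tnf on the higher side and for Casp12, Faslg, Zmat3 and 1 Fas probe set on the lower side, against 3.7% and 4.3% of all tested probe sets. These 5 were named after their values were seen.

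In the remainder of the Bcl2 family, the 10 tested probe sets had a median difference of 0.016, with 6 above 0 and 4 below. Bbc3, which encodes the p53-induced BH3-only protein Puma, measured 1184, 1651 and 1698 on Math2 arrays, against 919, 1301 and 1456 on control arrays. Its difference of 0.31 was above 0 in 3 of 3 pairs, the groups overlapped, and the 95% interval ran from -0.28 to 0.90. Bcl2l11, the BH3-only protein Bim, measured 641, 598 and 1207 on Math2 arrays, against 956, 597 and 833 on control arrays with its brightest probe set, a difference of -0.013. A dimmer Bcl2l11 probe set, 1370787_at, which the naming rule did not choose, had a difference of 0.39, above 0 in 3 of 3 pairs and with overlap. Another, 1387338_s_at, was below the filter, with a difference of 0.13 in the fit without a filter. Bak1, the pore former that works beside Bax, was dim, at 53.5, 84.4 and 91.0 on Math2 arrays and 54.9, 67.7 and 96.6 on control arrays. Bnip3l and Bnip3, mitochondrial proteins of the family that act in mitophagy, had differences of 0.19 and -0.14 with their brightest probe sets. The other Bnip3l probe set, 1367898_at, had a difference of 0.012.

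Among the other caspases, the 4 tested probe sets had a median of 0.033, with 2 above 0 and 2 below. Casp4, an inflammatory caspase, averaged 931 ± 156 on Math2 arrays and 709 ± 233 on control arrays (SD, n = 3), a difference of 0.42. Casp2 and the executioner Casp6 had differences of -0.019 and 0.085. Casp12, a caspase of the endoplasmic reticulum, measured 89.6, 92.5 and 87.5 on Math2 arrays, against 116, 123.5 and 135 on control arrays. Its groups were apart with little spread, and the difference of -0.44 had a 95% interval from -1.15 to 0.27. That interval rests on a spread that limma moderates towards the spread of other probe sets of like signal.

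Inhibitor of apoptosis proteins and factors released from mitochondria had a median of -0.0082 over 7 tested probe sets, 3 above 0 and 4 below. Diablo, which frees caspases from these inhibitors, had the narrowest interval of those named in this group, from -0.47 to 0.45 about a difference of -0.0082. Xiap, the direct caspase inhibitor, had the widest, from -1.21 to 1.25, with signals of 101, 638 and 320 on Math2 arrays and 207, 264 and 372 on control arrays. Aifm1, a flavoprotein of the mitochondrial intermembrane space, and the protease Htra2 had differences of -0.11 and 0.025.

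The death receptor list had a median of -0.14 over 9 tested probe sets, 4 above 0 and 5 below. The cytokine gene Tnf measured 558, 131 and 115 on Math2 arrays 1, 2 and 3, against 26.5, 41.8 and 40.6 on control arrays 1, 2 and 3. Its difference of 2.30 did not pass in limma (adjusted p = 1.00, or 0.206 with the block), and its control signals lay below every array median. Without Math2 array 1 the difference was 1.59, and with a pseudocount of 32 it was 1.83. The other Tnf probe set, 1387691_at, was dim, at 2.90, 7.67 and 2.78 on Math2 arrays and 3.78, 7.16 and 7.42 on control arrays, with overlap. Of the microglia and macrophage markers, cells known to make Tnf, 6 of 6 lay below the array median on every array, with a summed signal of 173 to 223 on Math2 arrays and 208 to 272 on control arrays. Which cells gave the Tnf signal was not tested. Tnfrsf1a, a receptor for Tnf, was lower in 3 of 3 pairs with overlap, at 678, 1419 and 579 on Math2 arrays and 965, 1485 and 1042 on control arrays. Its difference of -0.47 was -0.86 without Math2 array 2 and -0.22 without Math2 array 3. Faslg, the ligand of the Fas receptor, had a difference of -0.56 and the Fas probe set 1397221_s_at of -0.45, both without overlap. The groups of Fas probe set 1397221_s_at overlapped after quantile normalization and after median centring, and its difference was -0.18 without control array 2. The brighter Fas probe set, 1384842_s_at, measured 218, 214 and 198 on Math2 arrays and 186, 439 and 202 on control arrays, with overlap. Its difference was -0.27, and Math2 was higher in pair 1. A dimmer Fas probe set, 1369900_at, was below the filter, with overlap and a difference of -1.08 in the fit without a filter. Ripk1, the kinase recruited to these receptors, and Cflar, an inhibitor of Casp8 activation, had differences of -0.14 and 0.014.

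The p53 list had a median of 0.064 over 9 tested probe sets, 5 above 0 and 4 below, which became -0.068 with quantile normalization. Its bright genes, by their brightest probe sets, included Ccng1 (0.26, or -0.0045 with quantile normalization), the cell cycle inhibitor Cdkn1a (0.064, or -0.068) and the p53 ubiquitin ligase Mdm2 (-0.037). The dimmer tested Mdm2 probe sets 1384427_at and 1383485_at had differences of 0.24 and 0.48, above 0 in 3 of 3 pairs and with overlap. The dimmer Cdkn1a probe set 1387391_at had a difference of -0.15. Zmat3, a p53-induced RNA-binding protein, measured 2066, 2694 and 2806 on Math2 arrays, against 3896, 2901 and 3254 on control arrays, a difference of -0.41. Its groups were apart, and its 95% interval ran from -0.90 to 0.08. Kinases and factors upstream of Bcl2 proteins had a median of -0.20 over 15 tested probe sets of 5 genes, with 2 above 0 and 13 below. Several of these probe sets share a gene. Jun, Akt1 and Pik3ca had differences of -0.063, -0.061 and -0.11 with their brightest probe sets.

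**Figure D4:**
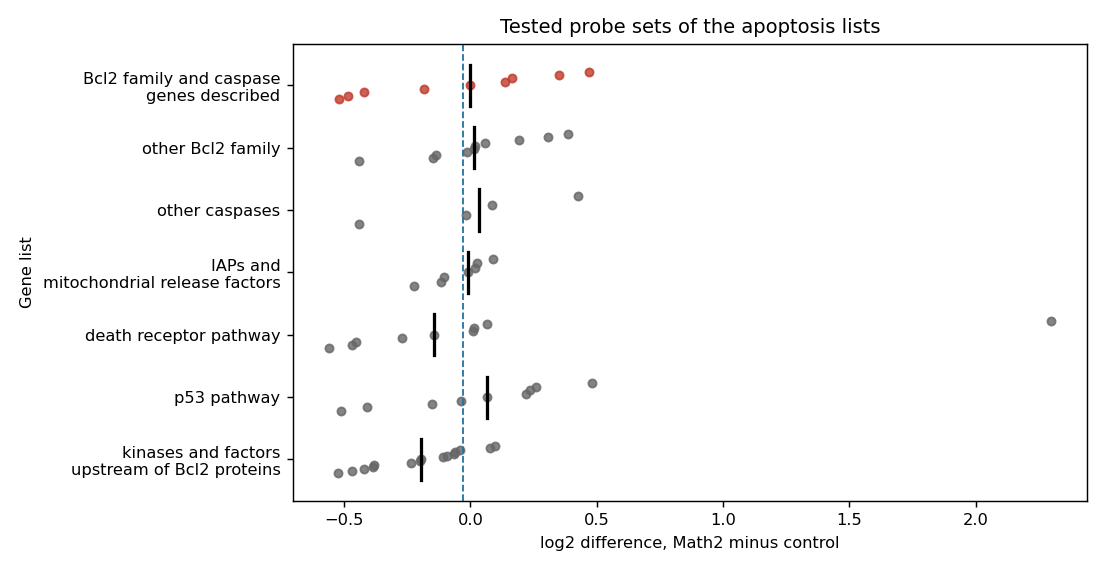
Log2 difference, Math2 minus control, of each tested probe set of the Bcl2 family and caspase genes described (red) and of the 6 further apoptosis lists (grey), with list medians as black bars. The dashed line is the median of all tested probe sets, -0.031. List medians lie between -0.20 and 0.064, and Tnf, at 2.30, stands apart in the death receptor list.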

How the data were processed

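The deposited values are intensity per probe set on a linear scale from Affymetrix Rat Genome 230 2.0 arrays. The submitters' processing notes name MAS5 without its settings. Of 31099 probe sets, 57 control probe sets were left out of tests. By platform annotation, 20826 probe sets had 1 symbol, 436 had several and 9780 had none. No genome build is named for the array, so the only coordinates given are those of the printed RefSeq promoter windows (GRCr8).

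Values became log2(signal + 7.42), the pseudocount being the 10th percentile of all positive signals, which understates changes of dim probe sets. Probe sets whose average log2 signal reached the 40th percentile (6.07) entered limma 3.58.1 in R 4.3.3 (intensity trend, two-sided, Benjamini-Hochberg adjustment over 18625 probe sets). The fit was also run on simulated arrays with known changes. Their noise was independent between arrays, with no effect of sample number. That run does not show how often the fit without or with the block would find changes in these arrays. Precision is limited by having 3 arrays in each group. Deviations from group means correlated at 0.326, 0.476 and 0.372 for same-numbered arrays, all above the limit of 0.1, so the numbers were taken to pair the samples. Of the 6 combinations of unlike number, Math2 3 with control 1 also passed that limit, at 0.104. This rests on the values, as no label explains the numbers. The unblocked fit was the planned main one.

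Named were every probe set of the 9 genes, Neurod6, the brightest probe set of the 3 brightest genes of each pathway list, and Bak1, Bcl2l11, Bbc3, Xiap and Diablo. Genes and lists were chosen with earlier results of these data known. Alternatives were the block, quantile normalization, median centring, pseudocounts of 1 and 32, no filter, a stricter filter (60th percentile) and leaving out each array.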

Additional observations from a re-analysis of the deposited data

How the results depend on the processing

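The count of Bcl2 family and caspase probe sets past the threshold was 0 in every setting run, including 0 to 0 when each array was left out, and the lowest adjusted p of any of them was 0.497 (limma with the replicate block, Mcl1). The block changed no call of these genes or of the pathway lists. Over all probe sets limma called 0 without the block, 3 with the replicate block, 5 with quantile normalization and the replicate block, and 0 to 0 when each array was left out. Quantile normalization turned the sign of Bcl2l1 probe set 1370812_at (0.074), Casp2 (0.028), Bcl2l11 (0.039), Ccng1 (-0.0045) and Cdkn1a (-0.068), and the values with the block were the same. Leaving out each array turned the sign of 19 of 36 named probe sets past the filter, none of them called. Their log2 differences ranged from -0.14 to 0.25 for Bcl2l1, -0.61 to 0.15 for Bad, -0.038 to 0.38 for Casp8, -0.11 to 0.27 for Bak1, -0.33 to 0.17 for Bcl2l11, -0.32 to 0.19 for Bnip3, -0.0022 to 0.40 for Bnip3l, -0.35 to 0.18 for Casp2, -0.052 to 0.26 for Casp6, -0.57 to 0.71 for Xiap, -0.094 to 0.080 for Diablo, -0.15 to 0.21 for Htra2, -0.11 to 0.16 for Cflar, -0.21 to 0.18 for Mdm2, -0.092 to 0.28 for Cdkn1a, -0.15 to 0.046 for Jun, -0.24 to 0.11 for Akt1, -0.27 to 0.041 for Pik3ca and -0.88 to 0.69 for Neurod6. The tested probe sets that kept their sign without any 1 array included Mcl1 1372520_at (0.35 to 0.58), Mcl1 1370141_at (0.13 to 0.49), Bid 1377759_at (-0.69 to -0.27), Apaf1 1369197_at (-0.60 to -0.27), Apaf1 1369198_at (0.0084 to 0.37) and Casp9 1368652_at (-0.71 to -0.17). The median over the 9 tested probe sets ran from -0.14 to 0.15 when each array was left out and was -0.18 with the stricter filter, which leaves fewer of them. The cause of these changes was not tested. Signal over background limits the dim probe sets, for which no detection calls were used here.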
